A study of Mus musculus with 10 samples.

Results

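The sites described here are strong C/EBPβ binding sites that appeared after induction of adipocyte differentiation and carried no peak of the glucocorticoid receptor (GR). They were taken from the 20746 C/EBPβ peaks listed at 6 h. Members were selected on measured values. A peak was a member when its height, a whole-number read signal given by the authors, was 20 or more and it shared no base pair with any C/EBPβ peak at 0 h or with any GR peak at 6 h. The rule selected 3119 peaks, which was 15.0% of all C/EBPβ peaks at 6 h and 35.1% of the 8875 peaks of height 20 or more. "New" means only that no peak was listed at that position at 0 h.

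The lists come from chromatin immunoprecipitation followed by sequencing (ChIP-seq) in 3T3-L1 cells, an established mouse preadipocyte line that becomes adipocytes in culture when given inducing hormones. C/EBPβ was profiled in undifferentiated cells (0 h) and 6 h after induction, and GR at 6 h with a pair of antibodies. Acetylation of histone H3 lysine 9 (H3K9ac), a mark of active regulatory DNA, was profiled at 0, 24 and 240 h, and the deposited regions lie away from transcription start sites and were called by the authors where the mark was higher at that time than at another. All samples are of this 1 line, with no genetic change named in the labels. The agents of the inducing mixture are not named in the sources used here. Each factor and time is 1 library, and its read total is not known. Spread between replicates could therefore not be measured, and no p-value across libraries is given. The intervals below are 95% Wilson intervals for shares and 95% Newcombe intervals for differences of shares. They cover counting error only, and clustered peaks make them too narrow.

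C/EBPβ is a basic leucine zipper transcription factor that dimerizes on DNA and is among the first factors to rise when preadipocytes are induced. It acts ahead of C/EBPα and PPARγ, the factors that carry the later adipocyte programme. GR is a nuclear receptor that enters the nucleus when bound by glucocorticoid and often binds DNA already occupied by other factors. H3K9ac is placed by acetyltransferases that such factors recruit and is found at promoters and active enhancers.

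The members were of moderate height within the strong peaks. Their heights ran from 20 to 66, with a median of 24 and quartiles of 22 and 29. These heights were set in part by the rule and are given as a description. New peaks with GR at the same minimum height (953 peaks) had a median height of 28 and a maximum of 91. Peaks already listed at 0 h had medians of 29 without GR (3821 peaks) and 43 with GR (982 peaks). Near the minimum, 415 members had a height of exactly 20, with a median fold enrichment of 9.47, and 522 new peaks without GR just missed it at 19, with a median of 9.02.

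The share of new sites without GR fell steadily with height. They made up 78.2% of the C/EBPβ peaks of height 12 to 13 and 54.5% of those of height 20 to 21. At heights of 40 to 59 they were 13.1%, and at 60 and more only 5 of 346 peaks (1.45%) were of this kind. Over all heights, 64.3% of the 6 h peaks shared no base pair with a 0 h peak and 87% shared none with a GR peak. Of the peaks of height 60 and more, 57.8% were both listed at 0 h and shared with GR. Height and both overlaps are the values the rule used, so these shares are a description. No test was made of them.

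**Figure D1:**
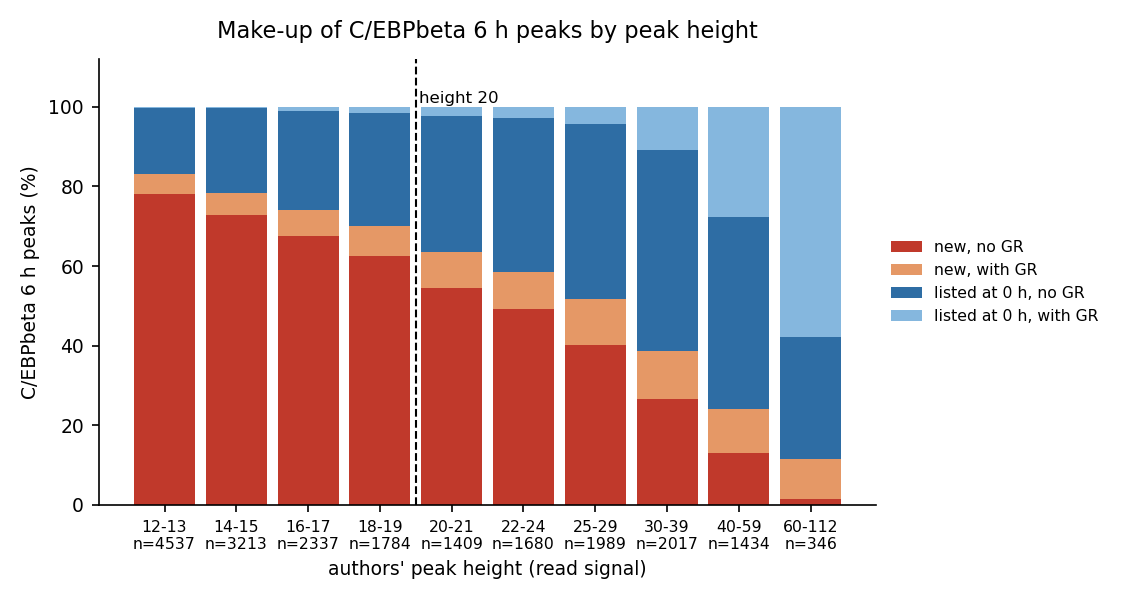
Make-up of the C/EBPβ 6 h peaks by peak height. Each bar is 1 height class with its number of peaks, split into new peaks without GR, new peaks with GR, and peaks listed at 0 h without and with GR, in percent. The members lie right of the dashed line in the lowest segment, which falls from 54.5% at heights of 20 to 21 to 1.45% at 60 and more.

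The width of members is a description, since a narrower peak is less likely to share a base pair with GR and the rule thus bears on width. The median was 332 bp (quartiles 261 and 430 bp), close to the 330 bp of peaks listed at 0 h without GR, against 446 bp for new peaks with GR and 483.5 bp for older peaks with GR. Among peaks of height 20 to 24 the medians were 314 bp for members, 406 bp for new peaks with GR and 287 bp for older peaks without GR. Fold enrichment, the authors' ratio over a background they do not describe in the files, had a median of 11.03 in members and ranged from 5.79 to 30.37. Within heights of 20 to 24 it was 10.02 for members, 9.58 for new peaks with GR and 10.28 for older peaks without GR. Width and fold enrichment come from the same library as the heights, and no test was made of either.

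The highest member had a height of 66 and lay on chromosome 3 at 157997455 to 157997916 (mm8, as are all positions here). It also had the highest fold enrichment of all members, 30.37. It was isolated, since the nearest other C/EBPβ 6 h peak was 321953 bp away, the nearest GR peak 332074 bp and the nearest H3K9ac region of any time 180906 bp.

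The second, with a height of 64 and an enrichment of 27.35, was on chromosome 15 at 50602696 to 50603114, and a C/EBPβ 0 h peak lay 6695 bp from it. The next pair was on chromosome 13, with heights of 63 at 6166321 to 6166710 and 62 at 103973223 to 103973600. The fifth, of height 60 on chromosome 10 at 95931810 to 95932157, was the only one of the 10 highest within 1 kb of an H3K9ac region. That region was listed at 240 h, spanned 95931650 to 95932900 and held the whole peak.

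The other 5 of the 10 highest members had heights of 57 or 58, with ties broken by fold enrichment. Another site of height 57, on chromosome 5 at 72529255 to 72529869, was left out by this tie (fold enrichment 14.22). They lay on chromosome 8 at 130971745 to 130972016, chromosome 5 at 41831148 to 41831433, chromosome 6 at 22151992 to 22152373, chromosome 12 at 31756250 to 31756564 and chromosome 15 at 67143382 to 67144021. Of the 10, 7 had another C/EBPβ 6 h peak within 10 kb, 3 a C/EBPβ 0 h peak and 1 a GR peak. That 1 was the chromosome 12 site, 2467 bp from GR. None of the 10 was near an H3K9ac region of 0 or 24 h. At the other end, the member with the lowest fold enrichment, 5.79, was 691 bp wide and of height 20, on chromosome 4 at 65045269 to 65045960.

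**Figure D2:**
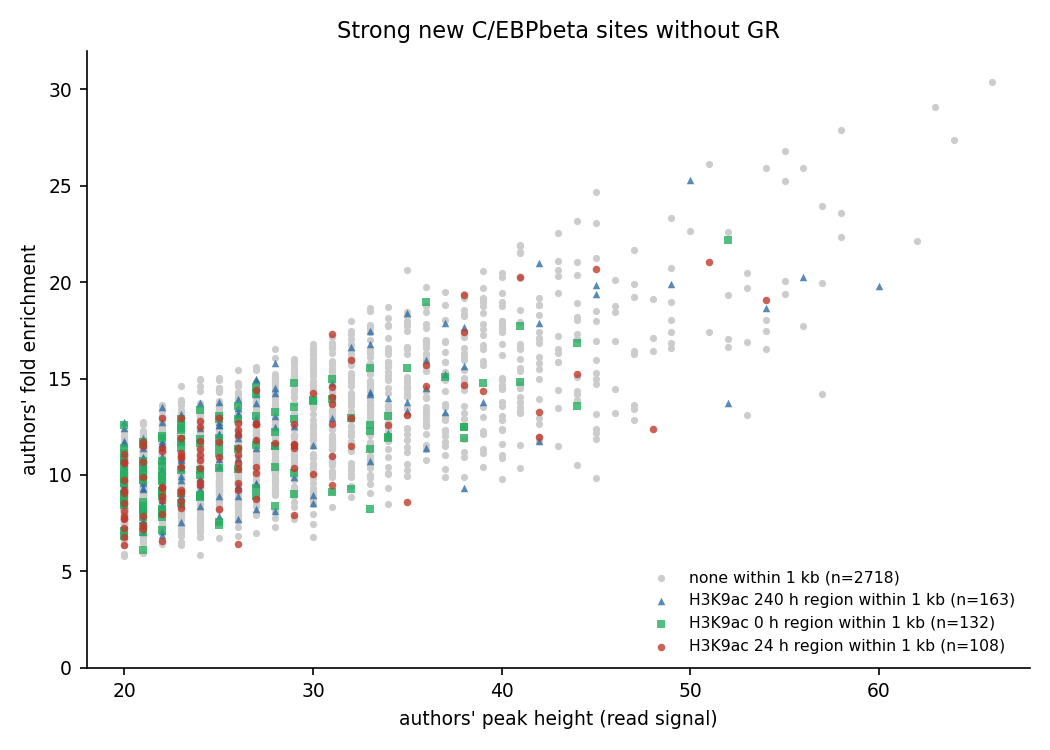
Each point is 1 of the 3119 members, by the authors' peak height (x axis, read signal) and fold enrichment (y axis, ratio). Colours and shapes mark members within 1 kb of an H3K9ac region of 0 h (132), 24 h (108) or 240 h (163), which lie over most of the range of heights.

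Most members had no listed change in acetylation within 1 kb. In all, 2718 members (87.1%, 85.9 to 88.3%) had no H3K9ac region of any time within 1 kb, and 401 had at least 1. Near a 0 h region lay 132 members (4.23%, 3.58 to 4.997%), near a 24 h region 108 (3.46%, 2.88 to 4.16%) and near a 240 h region 163 (5.23%, 4.50 to 6.06%). Over all C/EBPβ 6 h peaks these shares were low too, with 5.68% at 0 h, 3.11% at 24 h and 4.98% at 240 h. The members' intervals hold the background at 24 h and 240 h and lie below it at 0 h. The share of all 6 h peaks with no region of any time was not computed. With regions counted up to 10 kb away, the members' shares were 10.1% at 0 h, 7.44% at 24 h and 12.8% at 240 h. Regions of more than 1 time lay near 2 members. For 1 they were of 0 and 24 h, and for the other of 24 and 240 h. Each list holds regions where the mark was higher at that time than at another, which limits such cases by construction. Their share over all 6 h peaks was not computed.

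Members differed from the other strong classes near 24 h regions, and near 0 h regions from those listed at 0 h. The H3K9ac lists played no part in choosing the members. Near 24 h regions, 114 of 953 new peaks with GR were listed (11.96%), and the share of members minus this share was -8.50 points (-10.8 to -6.47). The share of members was 1.47 points (0.707 to 2.28) above that of peaks listed at 0 h without GR, with 76 of 3821 (1.99%), and 1.48 points (0.815 to 2.23) above that of new peaks without GR of lower height, with 170 of 8581 (1.98%). All 3 intervals exclude 0. Peaks listed at 0 h with GR had 8.04% near 24 h regions, and the members minus these gave -4.58 points (-6.54 to -2.89). With H3K9ac regions counted up to 10 kb away, the difference from peaks listed at 0 h was 1.16 points and its interval reached -0.0338.

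Near 0 h regions the order was another. Peaks listed at 0 h without GR had 8.69% there, and the members minus these gave -4.46 points (-5.60 to -3.31). Those listed at 0 h with GR had 7.43%, and the members minus these gave -3.20 points (-5.13 to -1.54). Members and new peaks with GR differed by 1.19 points (-0.259 to 2.38), and members and weaker new peaks by -0.196 points (-0.992 to 0.674), both within counting error. Near 240 h regions members differed from new peaks with GR by -0.125 points (-1.90 to 1.39), within counting error. From peaks listed at 0 h with GR they differed by -0.477 points (-2.26 to 1.06), also within counting error. From peaks listed at 0 h without GR they differed by -0.793 points (-1.87 to 0.305), again within counting error. The last difference was beyond counting error with regions counted up to 10 kb away (-2.28 points, -3.91 to -0.641), with 1 peak per 100 kb window (-1.53, -2.74 to -0.318) and by direct overlap (-1.02, -2.01 to -0.0172). Members were 1.02 points (0.166 to 1.95) above weaker new peaks, but not beyond counting error when each class was limited to its highest peak per 100 kb window (0.838 points, -0.101 to 1.86) or with a minimum height of 30 (0.644, -0.787 to 2.52).

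**Figure D3:**
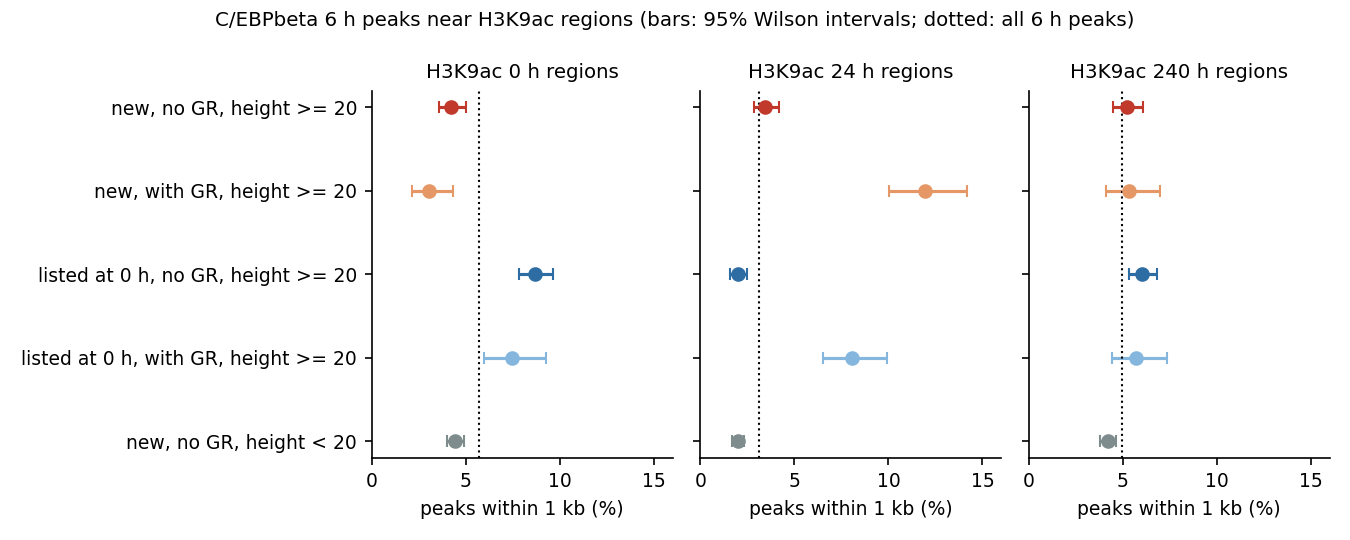
Share of C/EBPβ 6 h peaks within 1 kb of an H3K9ac region (x axis, percent) for members (top) and 4 other classes, in 1 panel per H3K9ac time. Points are shares, bars 95% Wilson intervals, and the dotted line is the share over all 6 h peaks. Members lie at 3.46% at 24 h, between the 1.99% of older peaks without GR and the 11.96% of new peaks with GR.

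Higher members were near 24 h regions in 3.14% (height 20 to 24, 1593 members), 3.63% (25 to 34, 1157 members) and 4.34% (35 and more, 369 members) of cases. Their intervals overlap, so no trend with height was shown. At every one of these heights the share in new peaks with GR was larger, with 9.79%, 10.8% and 15.6%. Near 0 h regions the members' shares were 4.77%, 3.80% and 3.25%, and near 240 h regions 5.15%, 4.93% and 6.50%.

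Around members, cover by H3K9ac regions was higher at the peak centre than at 10 kb at all 3 times. A 24 h region covered the centre of 65 members (2.08%), against a mean of 0.561% at 10 kb on either side. At 0 h the cover was 2.85% at the centre and 1.11% at 10 kb, and at 240 h 3.82% and 1.52%. New peaks with GR had 7.76% at the centre at 24 h and 1.31% at 10 kb. The higher cover at the centre was not peculiar to members. Peaks listed at 0 h without GR had 6.33% against 1.65% at 0 h, 1.23% against 0.484% at 24 h and 4.63% against 1.71% at 240 h. Where a member overlapped a 24 h region, it usually lay wholly inside it, in 56 of 77 cases. Its centre was a median of 454.5 bp from that of the region. Lying wholly inside was not peculiar to members. Peaks listed at 0 h without GR did so in 40 of 58 cases and new peaks with GR in 50 of 89.

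**Figure D4:**
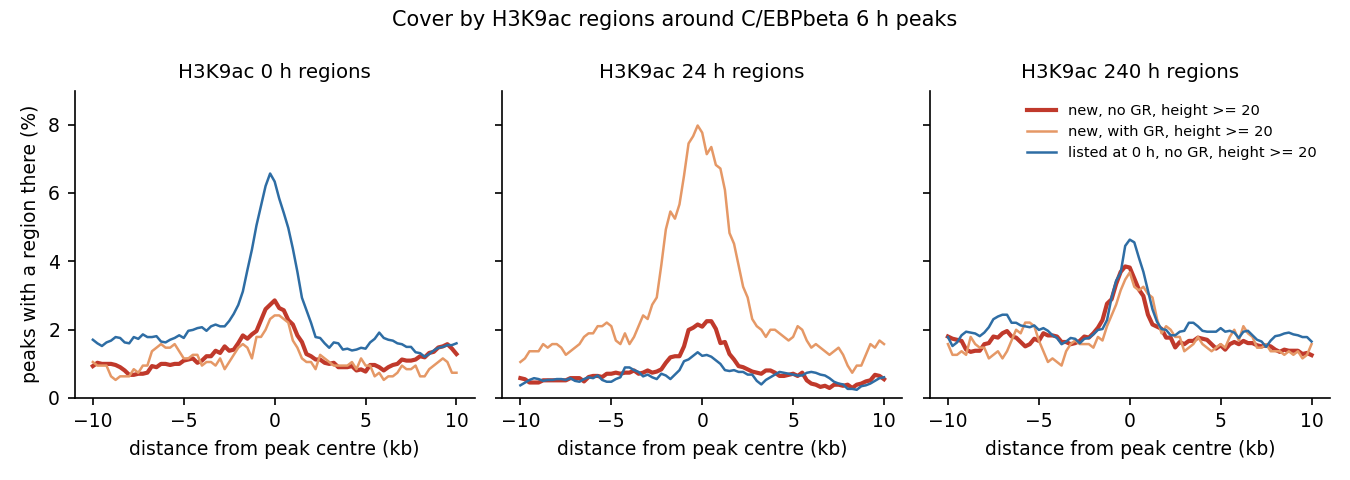
Share of peaks with an H3K9ac region at each distance from the peak centre (x axis, kb; y axis, percent), in 1 panel per H3K9ac time, for members, new peaks with GR and peaks listed at 0 h without GR. At the centre the members have 2.08% at 24 h, where new peaks with GR have 7.76%. At each time the cover of every class shown is higher at the centre than at 10 kb.

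The 5 highest members near a 24 h region were looked at singly. The highest, of height 54 on chromosome 6 at 115371802 to 115372202, lay inside a region at 115371700 to 115373450, and GR was 4996 bp away. The next, of height 51 on chromosome 2 at 48321469 to 48321747, lay just inside the end of a region at 48319050 to 48321750, and the nearest GR peak was 20143 bp away. The chromosome 2 site also had a 0 h region 3854 bp away.

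The other 3 were on chromosome 6 at 30991851 to 30992494 (height 48), chromosome 3 at 122340806 to 122341062 (height 45) and chromosome 17 at 84230441 to 84230840 (height 44). The distance to GR was 8386 bp, 219473 bp and 1083 bp in turn, so these sites ranged from next to GR to far from it. The chromosome 17 region, at 84227500 to 84232750, was 5250 bp wide.

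The 3 highest members near a 0 h region lay on chromosome 1 at 165219004 to 165219522 (height 52), chromosome 14 at 27857026 to 27857837 (height 44) and chromosome 2 at 48291894 to 48292482 (height 44). The chromosome 2 site of this set lay 26569 bp from the chromosome 2 region of 24 h named above. Its own 0 h region spanned 48289350 to 48292800. Near 240 h regions the 3 highest were the chromosome 10 site named above, chromosome 19 at 28366361 to 28366717 (height 56) and chromosome 6 at 94887163 to 94887548 (height 54). The chromosome 19 site lay inside a wide region of 5350 bp with an average read count of 16.

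Although no member overlapped GR, their distance from GR varied widely, with a median of 77210 bp. A GR peak lay within 200 bp of 37 members, within 1 kb of 86 and within 10 kb of 492. That is 15.8% (14.5 to 17.1%) within 10 kb, against 14% of all C/EBPβ 6 h peaks without GR. Peaks listed at 0 h without GR had 12.6%, which was 3.16 points (1.51 to 4.83) lower, and weaker new peaks 15.0%, a difference of 0.811 points (-0.646 to 2.32). The GR peaks within 1 kb of a member had heights of 12 to 116 with a median of 18. The lowest height in the GR list is 12, so weaker GR signal on the members would not have been listed.

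Members with GR nearby were more often beside a 24 h region. Of the 492 with a GR peak within 10 kb, 40 (8.13%, 6.03 to 10.9%) were near a 24 h region, against 68 of the 2627 others (2.59%, 2.05 to 3.27%), a difference of 5.54 points (3.33 to 8.35). The same split gave -0.440 points (-2.05 to 1.77) near 0 h regions and 1.28 points (-0.762 to 3.90) near 240 h regions. Median heights were 25 and 24. The split at 24 h was not peculiar to members, since it was 4.61 points (2.76 to 7.12) in peaks listed at 0 h without GR and 3.17 points (2.10 to 4.49) in weaker new peaks.

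In 14 of those 40 cases the acetylated region itself reached within 1 kb of the GR peak, and in 26 it did not. An alternative chosen after the data were seen left out all 24 h regions within 1 kb of GR. The difference was then 2.90 points (1.08 to 5.34). Of the 68 members near a 24 h region without GR within 10 kb, none had such a region. Leaving such regions out could therefore only lower the share near GR, so a smaller difference was fixed in advance. A GR peak can share its place with a C/EBPβ 6 h peak, which then counts as a C/EBPβ neighbour of the member. The counts of GR and C/EBPβ neighbours are thus not independent. Of the 492 members near GR, 448 had another C/EBPβ 6 h peak within 10 kb, against 1090 of the 2627 others. Among members with such a neighbour the GR split gave 8.48% against 3.67% near 24 h regions, a difference of 4.81 points (2.23 to 7.91). Among members with no C/EBPβ neighbour only 44 had GR within 10 kb, and 2 of them (4.55%) were near a 24 h region, against 28 of 1537 (1.82%). That difference of 2.72 points (-0.662 to 13.3) was within counting error.

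The share near 24 h regions fell with distance from GR. It was 11.6% (6.44 to 20.1%) for the 86 members within 1 kb, 7.39% (5.22 to 10.4%) from 1 to 10 kb, 5.60% (4.17 to 7.48%) from 10 to 50 kb, 1.43% (0.884 to 2.32%) from 50 to 250 kb and 1.31% (0.715 to 2.40%) beyond. For 0 h and 240 h regions the shares did not fall at each step, and lay between 2.76% and 5.81% and between 4.75% and 6.40%. At 24 h the members' intervals of adjacent classes overlap, except for 10 to 50 kb against 50 to 250 kb. The fall at 24 h was not peculiar to members. From within 1 kb to beyond 250 kb, peaks listed at 0 h without GR went from 6.90% to 0.726%. Weaker new peaks went from 6.91% to 0.915%. The excess of members over peaks listed at 0 h without GR at 24 h was 3.16 points (1.27 to 5.21) from 10 to 50 kb of GR. Within 10 kb it was 2.11 points (-1.15 to 5.40), from 50 to 250 kb 0.162 (-0.772 to 1.16) and beyond 250 kb 0.588 (-0.333 to 1.73), all within counting error. These distance classes were chosen after the lists had been examined.

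**Figure D5:**
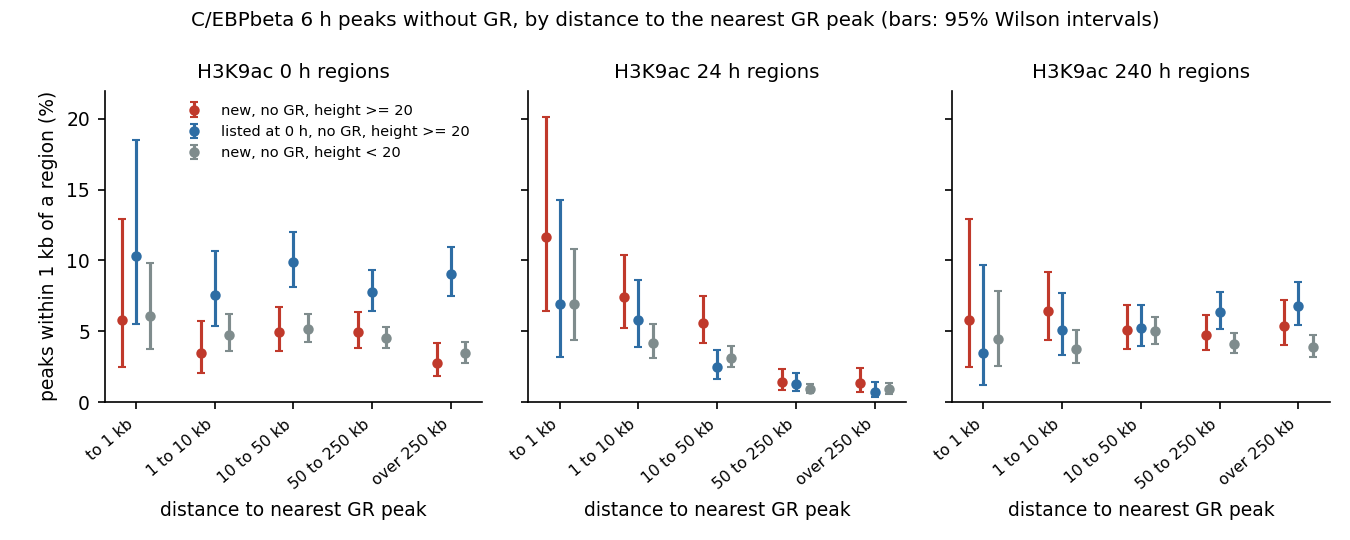
Share of C/EBPβ 6 h peaks without GR that lie within 1 kb of an H3K9ac region (y axis, percent) by distance to the nearest GR peak (x axis, 5 classes), in 1 panel per H3K9ac time, for members, peaks listed at 0 h and weaker new peaks. Points are shares and bars 95% Wilson intervals. The members' share near 24 h regions falls from 11.6% within 1 kb of GR to 1.31% beyond 250 kb.

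Members had another C/EBPβ 6 h peak within 10 kb about as often as all 6 h peaks did. They had a 0 h peak there about as often as all new peaks. Another C/EBPβ 6 h peak lay within 10 kb of 1538 members (49.3%, 47.6 to 51.1%), against 47.7% of all 6 h peaks. New peaks with GR had 60.3%, and members minus these gave -11.0 points (-14.6 to -7.43), while peaks listed at 0 h without GR had 45.8%, which was 3.51 points (1.15 to 5.87) less. That last difference shrank to 0.0240 points (-2.37 to 2.42) when a 0 h or GR peak within 1 kb counted as shared. A C/EBPβ 0 h peak lay within 10 kb of 773 members (24.8%, 23.3 to 26.3%), against 24.9% of all new peaks, and within 1 kb of 152. Members minus new peaks with GR gave -3.23 points (-6.52 to -0.0711) and members minus weaker new peaks 0.474 (-1.27 to 2.26). In all, 1473 members (47.2%) had no listed factor peak of either kind or time within 10 kb. This share was not computed for all 6 h peaks or for the other classes, so it is not shown to be particular to members.

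Members with a C/EBPβ 0 h peak within 10 kb were more often near H3K9ac of 0 h, with 6.60% against 3.45% of the others (difference 3.14 points, 1.40 to 5.23). The same held near 24 h regions, with 5.82% against 2.69% (3.14 points, 1.52 to 5.10), but not near 240 h regions (0.276 points, -1.42 to 2.28). Once members with GR within 10 kb were set aside, the difference at 24 h was 1.50 points (-0.0106 to 3.57), within counting error, and that at 0 h was 4.33 points (2.16 to 7.03).

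The acetylated regions beside members were few within their lists. They were 137 of 4429 regions at 0 h (3.09%), 108 of 1629 at 24 h (6.63%) and 167 of 7845 at 240 h (2.13%). Of the 108 regions at 24 h, 75 had no other C/EBPβ 6 h peak and no GR peak within 1 kb. The 108 had a median width of 1700 bp, against 1300 bp over the list and 1875 bp for the 120 regions near new peaks with GR. Their average read count had a median of 9 and a maximum of 14, against 10 and 18 beside new peaks with GR. A false discovery rate listed as 0 was held by 25.9% of them, 33.3% of those near new peaks with GR and 17.6% of the list. The 569 regions at 24 h near any C/EBPβ 6 h peak, which include the 108, were much like them. Their median width was 1650 bp, their median read count 9, and 26.4% had a rate of 0. Only 6 of the 24 h regions had at least 2 members within 1 kb. The 3 of these with the highest average read count had 2 members each, and were 1 region of chromosome 14 at 69984050 to 69986350 and a pair of chromosome 16 at 24860000 to 24868400 and 52012700 to 52015800.

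Along the genome the members were spread over all chromosomes listed. They made up 29.5% (26.7 to 32.4%) of the strong 6 h peaks on chromosome 6, the lowest share, and 40.5% (36.2 to 44.9%) on chromosome 1, the highest, around 35.1% overall. Of all members, 1034 (33.2%) shared a 100 kb window with at least 1 other. The like share was not computed for the other classes, so it is not shown to be particular to members. The largest number of members in 1 window was 5. That window, on chromosome 15 from 3500000 to 3600000, held 13 C/EBPβ 6 h peaks, 3 of 0 h, 2 GR peaks and 1 H3K9ac 24 h region. Its highest member, at 3594547 to 3594959 with a height of 55, was 3502 bp from GR and 2742 bp from the 24 h region. The next windows by summed height were on chromosome 2 from 46100000 to 46200000, where the 4 members were the only C/EBPβ 6 h peaks, and on chromosome 19 from 28300000 to 28400000, with 4 members of 7 peaks, no GR peak and 4 H3K9ac regions of 240 h.

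Members beside 24 h regions were more concentrated. Chromosome 16 held 15 of the 108, so that 12.5% (7.72 to 19.6%) of its 120 members were near a 24 h region, against 3.10% (2.54 to 3.78%) of members elsewhere. Other C/EBPβ 6 h peaks on chromosome 16 had 4.72% (3.29 to 6.74%), and the chromosome held 5.22% of all 24 h regions. Of the 15, 4 lay between 24000000 and 25000000 on chromosome 16, with 14 GR peaks and 17 H3K9ac 24 h regions, and 5 between 25000000 and 26000000, with 15 GR peaks and 21 such regions. With chromosome 16 left out, the 24 h share of members was 1.12 points (0.370 to 1.92) above that of peaks listed at 0 h without GR. On chromosome 17, 10 of 107 members (9.35%, 5.16 to 16.4%) were near a 24 h region, against 3.25% of members elsewhere. Other C/EBPβ 6 h peaks there had 4.10% (2.83 to 5.90%), and the chromosome held 6.02% of all 24 h regions. On chromosome 7 none of 108 members was near one (0 to 3.43%), against 1.58% (0.882 to 2.80%) of its other 6 h peaks. That chromosome held 2.82% of all 24 h regions. These chromosomes were singled out after their values were seen.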

How the data were processed

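Per the labels' protocols, reads of 36 bp were placed on the mouse genome (mm8) with ELAND, and only unique placements were used, each start once. How peaks were called, at which threshold and with what use of the 4 input libraries is not given in the sources used here. The C/EBPβ and GR lists deposited by the authors hold a fold enrichment (ratio) and a peak height (a read signal, 12 or more in each list). The deposited H3K9ac lists hold a false discovery rate (a q-value) and an average read count (a signal), per the file headers.

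Analyses used Python 3.11.15, numpy 2.4.6, pandas 2.3.3 and matplotlib 3.10.9. Peaks overlapped when they shared at least 1 bp. A distance is 1 more than the base pairs between intervals, as in bedtools 2.31.1, with which all distances between lists agreed (0 mismatches). The overlap code and the intervals were tested on simulated data. Near means within 1 kb of an H3K9ac region or within 10 kb of another peak. Comparison classes have the same minimum height unless said.

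Named sites are the 10 highest members, the 5, 3 and 3 highest near 24, 0 and 240 h regions, the 3 densest 100 kb windows, the extremes of fold enrichment and the 3 H3K9ac 24 h regions with most members (ties by average read count). The members, lists and tests were chosen with earlier results of these data known. Alternatives covered height, overlap, distance, false discovery rate, autosomes, reweighting to the members' heights (classes from 20, 22, 25, 30 and 40) and 1 peak per 100 kb window. Genes and sequences at the peaks were not analysed here, since the files' build differs from that of the tables at hand.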

Additional observations from a re-analysis of the deposited data

Results flagged for a closer look

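Members and peaks listed at 0 h without GR differed in opposite directions near H3K9ac regions of different times, which is why the pair of values is singled out. The difference, members minus the other class, was -4.46 points near 0 h regions and 1.47 points near 24 h regions, each with an interval that excludes 0. The regions of each list were called where the mark was higher at that time than at another. Only 1 member was near regions of both 0 and 24 h, so the pair of differences need not be independent. Each time is 1 library, and the difference between the times was not tested.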

How the results depend on the processing

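No paired analysis was possible because each group is 1 library. Under the alternatives planned, 107 of 128 differences of shares kept their direction and their side of 0, 10 lost an interval without 0, 6 gained one and 5 changed sign. Of the alternatives chosen after the data were seen, 11 of 12 differences kept both. The cause of the changes was not tested. Sizes moved more than calls, by construction where the distance or the region list changed. Over all alternatives, members minus new peaks with GR near 24 h regions ranged from -12.8 to -3.20 points, members minus peaks listed at 0 h from 0.470 to 2.06 near 24 h and from -7.30 to -2.60 near 0 h regions, and the split of members by GR within 10 kb from 2.90 to 7.84. Peaks of unlike height could not be reweighted, so weaker new peaks have no such value.

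A minimum height of 30 left 728 members. The difference from weaker new peaks was then 0.644 points near 240 h regions, 3.24 for 0 h neighbours (0.474 at a minimum of 20) and 3.00 for GR neighbours (0.811 at 20), the last 2 now with intervals without 0, and that from new peaks with GR for 0 h neighbours was -1.29 (-3.23 at 20). This one was -2.99 with an overlap of at least 50% of the shorter peak, -2.997 with heights reweighted and -1.56 within 5 kb, and lost its call in all 4 cases. For 0 h neighbours, members minus weaker new peaks was -0.224 within 5 kb and 2.05 within 50 kb. For C/EBPβ 6 h neighbours, members minus peaks listed at 0 h was 0.0240 with neighbours within 1 kb counted as shared and 2.01 within 5 kb.

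Near 240 h regions, members minus new peaks with GR turned to 0.149 by direct overlap, 0.834 with a false discovery rate of 0 and 0.658 with heights reweighted. Members minus peaks listed at 0 h was -1.02 by direct overlap, -2.28 within 10 kb and -1.53 with 1 peak per 100 kb window, each beyond counting error, unlike the -0.793 of the text. Members minus weaker new peaks was 0.555 with a false discovery rate of 0 and 0.838 with 1 peak per window. At 0 h that difference was 0.328 with a false discovery rate of 0. At 24 h, members minus peaks listed at 0 h was 1.16 within 10 kb. Without chromosome 16, members exceeded new peaks with GR near 0 h regions by 1.51.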
